A study of Mus musculus with 6 samples.

Results

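The distal upstream stretch of the Ikzf1 bait comprised 392 DpnII fragments of chromosome 11, of 295446 listed for that chromosome in the DP Ikzf1 file and of 1928618 listed in the 6 libraries of the series. It spanned 156.5 kb, between 143.5 and 300 kb upstream of the bait (chr11:11583520, mm9), which itself lies just before the annotated start of Ikzf1 at chr11:11585006 (plus strand). It was chosen by the measured profile itself, as the outermost neighbouring contact peaks and the drop behind them. The levels, peaks and drop below are therefore descriptions, without a test. The study compared 4C profiles of 3 baits in mouse cells. DP thymocytes (CD4+/CD8+) came from the thymus of c57/Bl6 mice at 4 weeks, sorted by FACS for CD4 and CD8a, fixed with 2% formaldehyde and cut with DpnII and then Csp6I, and were profiled once from the Ikzf1 bait and once from the Satb1 bait. The labels name no genetic change or drug for these cells. With 1 library per bait in these cells there was no replicate error, and intervals cover the counting error of fragments or reads only. They treat reads and fragments as independent, but PCR copies of 1 ligation cannot be told from separate ligations, and neighbouring fragments are not independent. Counts of 4C fragments hold no expression of marker genes, so the sorted cell type was not checked.

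Ikzf1 encodes Ikaros, a zinc finger transcription factor needed for lymphocyte development, and DP thymocytes are the stage between early thymic progenitors and mature T cells. In 4C a single bait fragment is used to count how often all other restriction fragments were ligated to it after fixation, and the counts normally decline with distance from the bait. The stretch covers 4930415F15Rik, listed by RefSeq under the later name Spata48 (spermatogenesis associated), and part of Zpbp, which encodes a sperm protein that binds the zona pellucida.

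The following DpnII fragments are printed as examples from both peaks, from beyond the outer drop and from the shortest fragments. They are read from the mm9 sequence on the plus strand, with the DpnII sites (GATC) that bound them and any Csp6I site (GTAC) in capitals. The first was the highest fragment of at most 300 bases in the first peak window, in an intron of 4930415F15Rik (chr11:11400804-11401059), with 4306 reads. The next was its counterpart in the second peak window, between genes (chr11:11428377-11428636), with 7280 reads and the only Csp6I site of these sequences. The third was the highest fragment of at most 300 bases beyond the outer drop, in an intron of Zpbp (chr11:11294111-11294362), with 1030 reads and no unique end, meaning that the 25 bases read from each cut site recur at other DpnII sites of the genome. The last held only 10 bases from one cut to the next (chr11:11421433-11421446 with the following site), yet carried 4145 reads.
First peak fragment: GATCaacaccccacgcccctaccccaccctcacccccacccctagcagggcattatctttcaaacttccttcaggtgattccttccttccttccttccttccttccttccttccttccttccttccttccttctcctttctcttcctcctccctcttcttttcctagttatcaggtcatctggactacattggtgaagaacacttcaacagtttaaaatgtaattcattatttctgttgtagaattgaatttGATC
Second peak fragment: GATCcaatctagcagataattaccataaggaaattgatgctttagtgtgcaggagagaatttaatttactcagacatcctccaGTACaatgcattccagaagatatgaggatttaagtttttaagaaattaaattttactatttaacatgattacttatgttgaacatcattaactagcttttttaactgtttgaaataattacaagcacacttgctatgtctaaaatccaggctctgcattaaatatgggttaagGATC
Fragment beyond the drop: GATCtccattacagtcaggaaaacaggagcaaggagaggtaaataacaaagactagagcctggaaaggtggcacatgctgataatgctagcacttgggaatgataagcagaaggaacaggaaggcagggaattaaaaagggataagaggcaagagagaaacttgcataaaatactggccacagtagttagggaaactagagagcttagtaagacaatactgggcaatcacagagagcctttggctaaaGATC
Shortest of the 10 highest fragments: GATCtaggggGATC

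The stretch held 239825 reads, which was 10.4% of the 2314166 reads listed for chromosome 11 (exact binomial interval 10.3 to 10.4%). Of the reads within 1.5 Mb of the bait it held 14.1%. Reads on other chromosomes, and on any fragments filtered out before, are not in these totals, so the share of the whole library is not known. Of its 392 fragments 249 had at least 1 read, a share of 63.5% (58.5 to 68.3%). The mean was 612 reads per fragment and the median 42.5, so a minority of fragments carried most of the signal. The highest fragment held 3.56% of the reads of the stretch, the 10 highest held 22.5%, and the 34 highest held 50%. At the outer end of the rule the 3 fragments just inside and the 3 just outside all had 0 reads. At the inner end the 3 just inside had 338, 2049 and 2090 reads, and the 3 just outside had 6631, 1068 and 191 reads, so the inner limit cut through continuous signal.

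Signal was arranged as a pair of neighbouring peaks, a lower bump farther out, and a long tail with scattered reads. As a running mean over 17 fragments, the first peak topped at 2029 reads per fragment 183 kb upstream (chr11:11400929), inside 4930415F15Rik. The second topped at 2124 reads per fragment 156 kb upstream (chr11:11427249), between genes. The 17 fragments of the first top ranged from 360 to 5267 reads with a median of 1575, and 12 of them had at least 1000 reads. Those of the second top ranged from 0 to 8527 with a median of 1259, and 9 of them had at least 1000. Thus both tops rested on several fragments, with the highest fragment giving 15.3% of the reads under the first top and 23.6% under the second. Because DpnII sites were denser there, the second window covered only 3.23 kb of genome, against 10.8 kb for the first. Per kb of genome the second window held 11187 reads and the first 3202, so the tops were alike per fragment but not per kb.

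**Figure D1:**
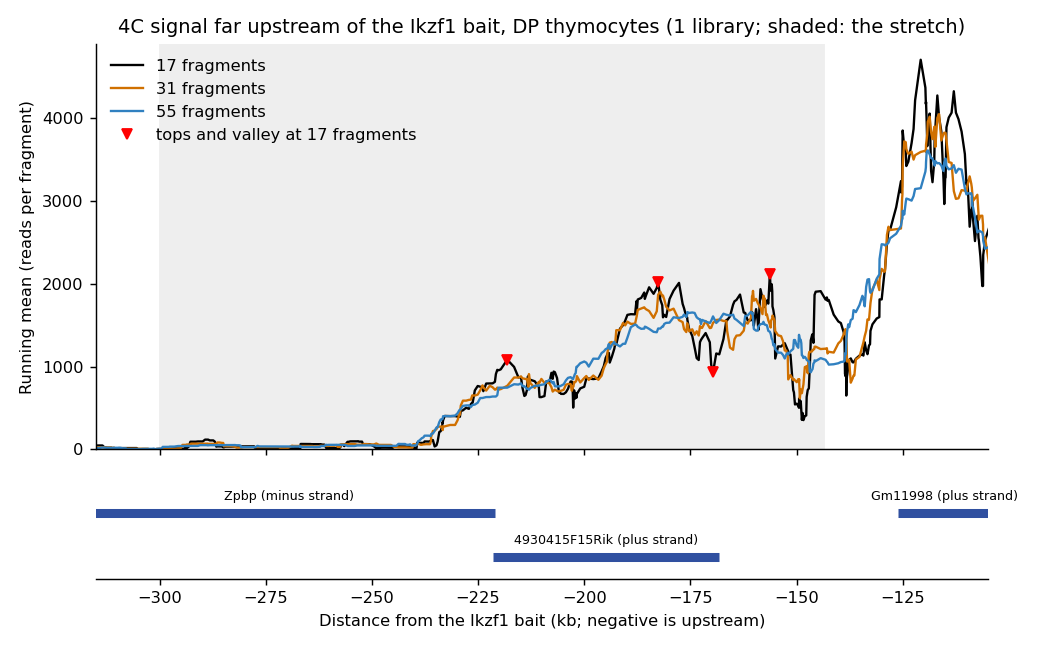
Running mean of reads per DpnII fragment over 17, 31 and 55 fragments against the distance from the Ikzf1 bait in kb (upper), with the genes of the annotation (lower); the stretch is shaded and red triangles mark the tops and the valley at 17 fragments. The pair of peaks at 183 and 156 kb is seen at 17 fragments and merges almost fully at 55, and the profile beyond 240 kb lies close to 0.

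The valley between the pair was lowest 170 kb upstream (chr11:11413855), at 931 reads per fragment over 17 fragments, which was 0.459 of the lower top. Its 17 fragments ranged from 0 to 3704 reads with a median of 350. The valley was thus a matter of fewer reads rather than of fewer detected fragments: 16 of 17 fragments had a read there, as did 16 of 17 under the second top and 17 of 17 under the first. The fragment at its centre, of 811 bp, had 0 reads and 1 unique end. The low lay within the 3' part of 4930415F15Rik, where the 5 kb step from 168.5 to 173.5 kb upstream averaged 316 reads, between a step of 2071 on the bait side and a step of 2008 on the far side.

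The depth of the valley varied with the smoothing and with the fragments counted. Its ratio to the lower top was 0.140 over 9 fragments, 0.213 over 11, 0.612 over 21, 0.632 over 31 and 0.899 over 55. At 55 fragments the tops stood only 15.0 kb apart, against 26.3 kb at 17 fragments. Odd and even fragments taken separately, at 9 fragments each, gave valleys of 0.523 and 0.452. With fragments that hold a GTAC site alone the ratio was 0.811, with windows of 10.9 to 17.3 kb. With fragments whose ends were both unique it was 0.694. The lowest point also moved, from 172 kb upstream at 9 fragments to 165 kb at 31 and 162 kb at 55. Since it was searched as the minimum between both tops, a ratio below 1 comes from the search itself, and neither the depth nor the place of the valley was fixed by the data.

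**Figure D2:**
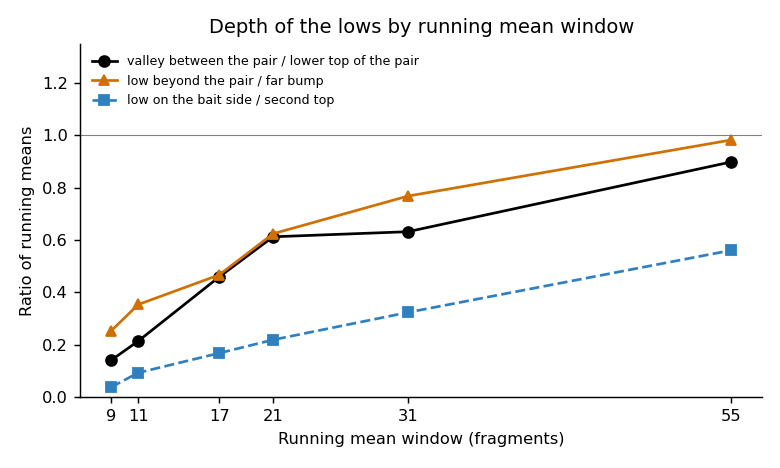
Ratio of each low to its neighbouring top (vertical axis) against the number of fragments in the running mean (horizontal axis), for the valley between the pair, the low beyond the pair and the low on the bait side of the second top. The valley ratio was 0.140 at 9 fragments and 0.899 at 55, and the low on the bait side had the smallest ratio at each window drawn.

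A low that was deeper in reads per fragment, but not per kb of genome, lay on the bait side of the second peak. Per kb it had 1812 reads over 3.33 kb, against 1685 over 9.39 kb in the valley. At 148 kb upstream (chr11:11435149) the running mean over 17 fragments was 355, or 0.167 of the second top, with 10 of the 17 fragments at 0 reads. Of those 17 fragments only 7 had a unique end, 25 bases being the length of the mapped prey read, against 17 of 17 in the valley. When fragments with 2 unique ends alone were counted, the lowest point on that side was 846 reads per fragment, 0.398 of the second top. From that low the running mean was higher again toward the inner end, at 1913 reads per fragment 144 kb upstream, in a window that reached past the stretch.

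Beyond the pair the profile formed a lower bump. It topped at 1085 reads per fragment 218 kb upstream (chr11:11365397), 0.534 of the first top, and a low of 506 reads per fragment lay between them at 203 kb. All 17 fragments under the bump had reads, from 7 to 3391 with a median of 735. The window lay over the start of both genes: 4930415F15Rik is transcribed toward the bait from chr11:11362097 (221 kb upstream, plus strand) and Zpbp away from it from chr11:11362411 (minus strand), so that their transcripts overlap at the start. The 4930415F15Rik start given is that of a processed transcript, and its protein-coding transcripts start nearer to the bait, the first at chr11:11364271. The low was 0.466 of the bump at 17 fragments. At 55 fragments the highest point of the bump window lay 204 kb upstream, at the inner limit of that window, and the low 203 kb upstream. Their ratio of 0.983 therefore compares neighbouring points on the way to the first peak and does not measure the dip beside the bump at 218 kb.

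The 10 highest fragments all lay nearer to the bait than the outer drop, and all had 2 unique ends. Of these, 5 were in the first peak window, 4 in the second and 1 in the window of the bump, and 8 held a GTAC site. In the whole stretch 181 of 392 fragments (46.2%) held a GTAC site. Both ends were unique in 177 of the 200 fragments nearer than the drop and in 90 of the 192 beyond it. The drop was placed from these same reads, and the peak windows were set after an earlier look at them. The position of the highest fragments relative to either is therefore no separate result. The highest fragment had 8527 reads at chr11:11426675-11427079, followed by the printed fragment of the second peak with 7280. The third, with 6990 reads at chr11:11408588-11409349, overlapped an exon of 4930415F15Rik. The shortest, with 4145 reads, was shorter than a prey read, so that a read from either of its ends also covers part of the next fragment. There were 20 fragments of the stretch shorter than the 25 bases of a prey read, of which 11 had reads, 5.01% of the reads of the stretch.

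**Figure D3:**
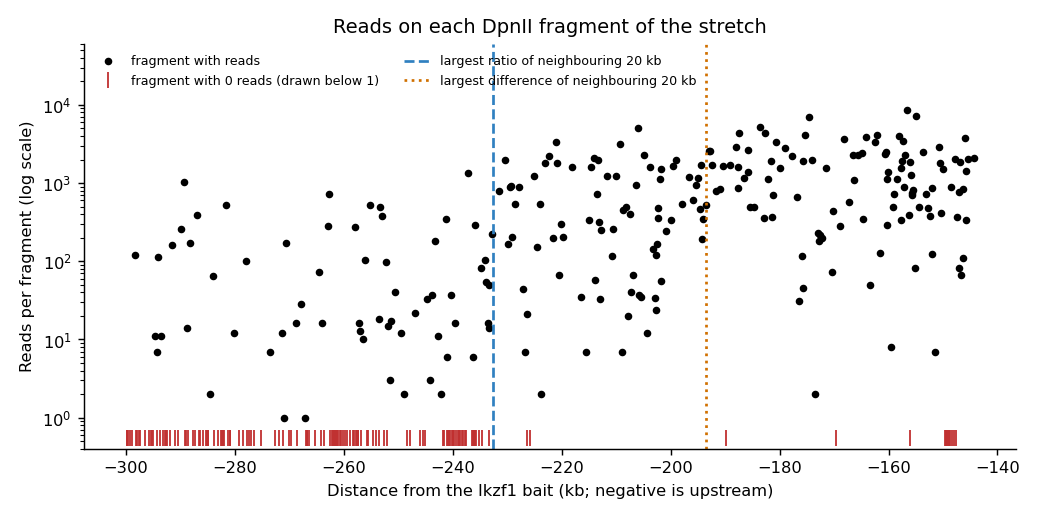
Reads on each of the 392 fragments (log axis) against the distance from the bait in kb; fragments with 0 reads are drawn as red ticks below 1, and vertical lines mark where the neighbouring 20 kb differed most by ratio and by difference. Detection is almost unbroken from the inner end to 233 kb, except for a cluster of red ticks near 149 kb, and is sparse beyond it.

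The outer edge depended on how a drop was measured. The largest difference between the 20 kb toward the bait and the 20 kb away from it fell at 194 kb upstream, where the means were 1841 and 768 reads per fragment, a ratio of 2.40. That position was the outer flank of the first peak, since 100% of the fragments on its far side still had reads, against 97.3% on its bait side. The largest ratio fell at 233 kb upstream, inside Zpbp, where the means were 740 on the bait side and 49.2 on the far side, a ratio of 15.0. There 94.6% of 37 fragments on the bait side had reads, and 45.2% of 62 on the far side. With 10 or 40 kb on each side the largest ratio fell at 238 kb, and the largest difference at 194 and 202 kb. Neither position is therefore known to better than several kb. The ratio was added after the values were seen, and it is used below to divide the stretch. Contrasts between its sides, with their intervals, are therefore descriptions and no support for the edge.

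Inside the edge at 233 kb, 185 of 200 fragments had reads (92.5%, interval 87.9 to 95.7%), with a mean of 1153 and a median of 684 reads per fragment. Outside it, 64 of 192 had reads (33.3%, 26.7 to 40.5%), with a mean of 47.9 and a median of 0. The inside thus held 230635 of the reads and the outside 9190. Mappability differed between them, as 94.5% of fragments inside and 70.3% outside had a unique end. Fragments with no unique end held 2906 of the reads inside and 2976 of those outside. Among fragments with 2 unique ends, 98.3% of 177 were detected inside (mean 1243) and 38.9% of 90 outside (mean 45.3). Detection was similar for fragments with and without a GTAC site inside the edge, at 90.7% and 94.2%, but their means were 1602 and 731.

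In 10 kb steps from the inner end outward, the share of fragments with a read was 70.6, 96.9, 94.4, 100, 94.7, 100, 100, 100 and 86.4% up to 233.5 kb. In the next 7 steps it was 32.5, 63.6, 23.5, 36.4, 21.1, 27.6 and 23.8%, the last one being cut short by the end of the stretch. The share of fragments with a unique end in these 7 steps was 47.5, 100, 52.9, 100, 78.9, 62.1 and 76.2%. The best detected of them had unique ends throughout, but the other step with unique ends throughout had 36.4% detected and the steps at 78.9, 76.2 and 52.9% had 21.1, 23.8 and 23.5% detected. The part of mappability in these levels was not tested. The mean per step was highest at 1921 reads from 173.5 to 183.5 kb and was 1096 in the valley step, against 1772 and 1921 in the steps beside it. Over the 7 outer steps the means lay between 12.5 and 72.0 reads per fragment.

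The 5 kb steps showed where detection was complete. Of the 18 steps inside 233.5 kb, 11 had reads on all their fragments, 13 had reads on over 90% of them, and the lowest share was 61.1%, in the step of the low near 150 kb. Of the 14 steps outside it none was complete. The highest share among them was 76.9%, and 1 step, the shortened one of 5 fragments at the outer end, had no reads at all. Each 5 kb step held few fragments, so that a share of 100% of 9 fragments has an interval of 66.4 to 100%. Levels of complete steps still ranged widely, between 589 and 2117 reads per fragment.

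**Figure D4:**
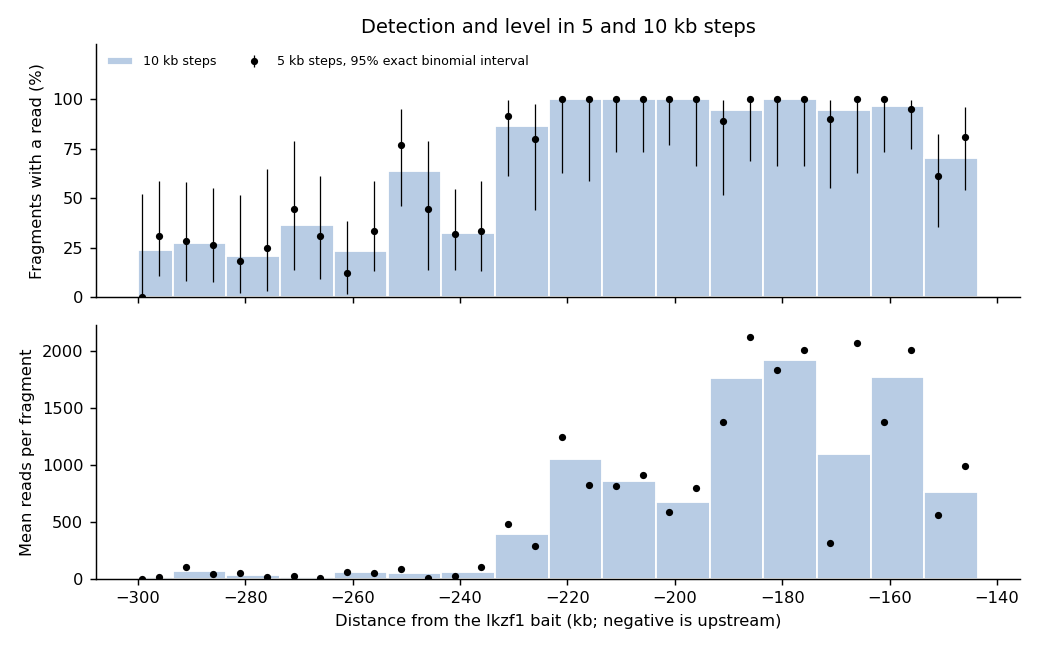
Share of fragments with a read (upper) and mean reads per fragment (lower) against the distance from the bait in kb, in 10 kb steps (bars) and 5 kb steps (points, with 95% exact binomial intervals in the upper panel). Detection lies at 70.6% or more in the 9 inner 10 kb steps and at 63.6% or less in the 7 outer ones, while the lower panel shows the drop in level at 170 kb with detection still near complete.

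The longest unbroken run of fragments with reads had 73 members over 35.4 kb (chr11:11358243-11393620), from the start region of both genes into 4930415F15Rik, with at least 2 reads each. The longest run without reads had 16 members over 4.58 kb (chr11:11320947-11325528), inside Zpbp. Inside the edge 15 fragments lacked reads, and 10 of these lay in the last 10 kb toward the bait. Of the 15, 9 had no unique end, against 2 of the 185 detected there. The undetected fragments had a median length of 163 bp and the detected ones 351 bp.

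By gene, fragments that overlap 4930415F15Rik averaged 1137 reads and 106 of 108 had reads. Those between this gene and the inner end averaged 1308 reads with 62 of 73 detected. Those that overlap Zpbp averaged 118 reads with 83 of 213 detected, and most of Zpbp lies beyond the edge. The 15 exon fragments inside the edge averaged 1610 reads, and the 112 with intron alone 991 reads. The exon fragments held a GTAC site more often (66.7% against 45.5%) and were longer (median 561 against 388 bp). They also included the fragment with 6990 of their 24144 reads. The part of exons in the difference was not tested. Inside Zpbp the small nucleolar RNA SNORA24 overlapped 1 fragment with 105 reads, and the pseudogene Gm12599 overlapped 3 fragments, of which 1 had 22 reads. The protein-coding genes were thus unequally covered. The edge at the largest ratio, which was added after the values were seen, lay inside the 5' portion of Zpbp. The edge at the largest difference lay inside 4930415F15Rik (chr11:11390000), near the start of a protein-coding transcript of that gene (chr11:11389269).

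The stretch was compared with its surroundings. The 12 steps of 10 kb from 20 to 140 kb upstream had a median of 980 reads per fragment, against 532 over the 16 steps of the stretch. Of the 12, 7 lay below the highest step of the stretch, which is the maximum of a stretch chosen for its peaks. Steps between 50 and 90 kb averaged 269 to 547 reads, below the 931 reads of the valley over 17 fragments and the 1096 of its 10 kb step. The 5 kb step of the valley averaged 316 reads, within that range. The detected share in the steps between 50 and 90 kb was 24.4 to 46.2%, against 92.5% inside the edge of the stretch. Only 31.7 to 42.3% of fragments in those steps had a unique end, against 94.5% inside the edge of the stretch, so their levels and those of the stretch are not directly comparable. In the 60 kb next to the inner end, around Gm11998, annotated as a processed transcript, the mean was 1975 reads with 88.7% detected. In the 100 kb beyond the outer end the mean was 16.3 reads with 7.57% detected, and 53.0% of fragments there had a unique end.

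At equal distances downstream of the bait, over Ddc, Grb10 and 1700042O10Rik, 348 fragments held a mean of 63.2 reads, so the mean upstream of 612 was 9.67 times that. Detection was 63.5% upstream and 35.6% downstream. In 10 kb distance bins the mean was higher upstream in 12 of 16, with 1842 upstream against 44.3 downstream at 180 to 190 kb. From 240 kb outward it was higher upstream in 2 of 6 bins, with 27.5 upstream against 55.1 downstream at 240 to 250 kb. At the mirror position of the edge the downstream means were 29.6 nearer to the bait and 45.2 farther from it, a ratio of 0.656. Since the edge was placed by the fall in upstream reads, an excess upstream that ended near it is no separate result.

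**Figure D5:**
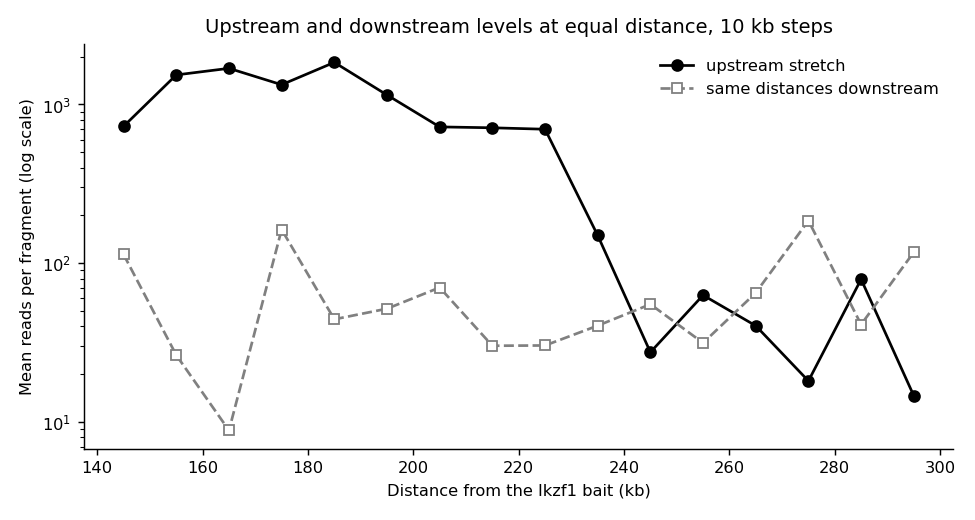
Mean reads per fragment (log axis) in 10 kb bins of distance from the bait, upstream (filled circles) and at the same distances downstream (open squares). The upstream line lies above the downstream line in every bin up to 240 kb (713 against 30.2 reads per fragment at 210 to 220 kb), and the lines cross beyond it.

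The Satb1 bait in the same cell type served as a second reference at the same distances, with bait and library differing together. Its means were 425 reads per fragment on the side of higher coordinates and 102 on the other, with 75.3% and 49.6% of fragments detected. The Ikzf1 stretch had a mean of 612 reads and 63.5% detected. Within 1.5 Mb of their baits, 14.7% of fragments had reads in the Ikzf1 library and 39.2% in the Satb1 library. Reads listed on the bait chromosomes came to 2314166 and 1997083. For these reasons raw levels and shares are set side by side only. The 92.5% detected inside the Ikzf1 edge covers only the part nearer to the bait, chosen from these reads. It is therefore not a counterpart of the Satb1 shares, which cover the whole range of distances.

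Sequence motifs were counted as a description. The CTCF core used here, CCNCNNGGNGGC on either strand, had 2 matches in the stretch, and 42.4% of the 11872 steps of 10 kb on chromosome 11 hold at least 1, against 2 of 15 in the stretch. One match, CCACAGGGCGGC on the plus strand (chr11:11424859-11424870, 159 kb upstream), lay on a fragment with 1131 reads in the second peak window. The other, CCACATGGTGGC (chr11:11302455-11302466, 281 kb upstream), lay on a fragment with 0 reads. The RUNX letters TGTGGT occurred 70.3 times per 100 kb, against 83.3 on the whole chromosome, and the E-box CAGCTG 30.0 times, against 46.9. Both were in all 15 steps of the stretch, as they were in 99.9% and 96.8% of the steps of the chromosome.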

How the data were processed

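Read counts per DpnII fragment were deposited by the authors, who removed the bait sequence with Sabre allowing 2 mismatches and mapped 25-base prey reads to mm9 with Bowtie (version 1.0.0 per the submitters' processing notes, where bcl2fastq is also listed). How reads with several matches were treated is not given in the sources used here. Neither normalization nor removal of PCR duplicates was applied here. The user guide leaves out fragments with over 2% of the total reads. Here 1 fragment near this bait holds 5.37% of the reads listed for chromosome 11. The total of all mapped reads is not known here, so whether that filter was applied cannot be told. The Methods give another SDS concentration for thymocytes than the labels. All 295446 midpoints matched DpnII fragments of mm9 (NCBIM37), with genes from GENCODE vM1. An end was unique if its 25 bases occur once among DpnII ends of the genome. Running means, shares and exact binomial intervals were computed in Python 3.11.15 (numpy 2.4.6, pandas 2.3.3, scipy 1.17.1, matplotlib 3.10.9).

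The tops and the valley were searched in set windows, and the edge on a 1 kb grid. On simulated profiles an edge tolerance set first was missed in 1 draw by the largest difference. The tolerance was widened after that, with the finder and the simulated profiles left as they were. The simulated edge was a single step between flat levels, unlike the profile here, so it does not give the precision of the edges reported. Members, windows and lists were chosen with earlier results of these data known. Named are genes overlapping the stretch, Ikzf1, the 10 highest fragments and the fragments at the tops and lows; neighbouring genes and single steps or motifs were named after their values were seen. Alternatives were other windows, fragments and edges. The other 4 libraries were not used beyond the fragment count.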

Additional observations from a re-analysis of the deposited data

How the results depend on the processing

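The stretch held 10.4% of the reads listed for chromosome 11. Its share was 14.1% of reads within 1.5 Mb, 14.3% without the 20 kb around the bait and 11.3% without fragments over 2% of listed reads. With counts capped at the 99th percentile of detected fragments it was 11.4%, and without the highest fragment 10.0%. The share of detected fragments, 63.5%, was 45.7% with at least 100 reads and 73.1% among fragments with a unique end, and stayed within its interval at 10 reads (58.9%) and with GTAC alone (64.1%). The valley ratio, 0.459, was 0.140, 0.213, 0.612, 0.632 and 0.899 at 9, 11, 21, 31 and 55 fragments, 0.379 without the highest fragment of each peak window, 0.523 for odd fragments, 0.811 with GTAC alone and 1.00 for the share of detected fragments. The drop at the largest difference, 2.40, was 2.63 and 3.13 with 10 and 40 kb on each side, 2.51 without the highest fragments, 1.75 with GTAC alone and 0.973, the other way, for detection. The ratio of upstream to downstream, 9.67, was 10.4 without the highest fragment of each, 12.1 with GTAC alone and 1.78 for detection. The cap, 14957 reads, lay above every fragment of the stretch and of its downstream counterpart, so it could not change these ratios. Chosen after the data were seen were the edge at the largest ratio (15.0, and 2.09 for detection), the running median for the valley (0.112), and fragments with 2 unique ends (0.694 for the valley, 12.1 for the ratio of upstream to downstream). The cause of these differences was not tested. No paired analysis was possible because the library was single. Depth allowed small shares to be counted finely, but 1 library gives no replicate spread, fragments without a unique end cannot show a read reliably, and steps of 5 kb hold 5 to 22 fragments.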
